A study of Homo sapiens with 5 samples.

Results

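The regions described here are called transcription start sites at antisense long non-coding RNA genes, that is, lncRNA genes whose symbol is the name of another gene followed by -AS and a number. A call counted as a member when its position was at most 500 bp from the outer end at which a gene of that strand would start, the left end for forward and the right end for reverse calls. Genes and ends were those of RefSeq on GRCh38. Such a call is named a promoter call of the gene. Of 28159 calls on chromosomes 1 to 22 and X, 480 met this rule, or 1.70%. They belonged to 395 of 2024 antisense genes, since 315 genes had 1 such call, 75 had 2 and 5 had 3. No measured level entered the rule.

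The calls came from PRO-seq, which maps RNA polymerases by letting them add biotin-labelled C and U to the RNA they are making, in HUDEP-2 cells, an immortalised line of human erythroid progenitors. The study holds 5 libraries, 2 of unedited wild-type cells and 3 of sg1617-edited single-cell clones with a 1 bp insertion, a 13 bp deletion or a 15 bp deletion, each clone with 1 library. The guide sg1617 targets the erythroid enhancer of BCL11A, a repressor of the fetal globin genes. The calls form 1 list per strand, made from 1 alignment whose name is no sample title, so edited and unedited cells could not be compared and no value has a replicate. The erythroid label was borne out by 10 of 10 erythroid marker genes with a promoter call, among them GATA1, ALAS2 and HBB. None of the lymphoid (0 of 4), myeloid (0 of 4), megakaryocyte (0 of 3), neuronal (0 of 3) or hepatocyte (0 of 2) markers had one. Of all protein-coding genes 42.2% had a promoter call, so 0 of 2 to 4 markers says little about a single cell type. The files give no reads per call, so the depth behind each call is unknown and a gene without a call may still be transcribed.

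An antisense lncRNA is read from the strand opposite to a protein-coding gene and overlaps it or starts beside it. Many such RNAs begin at a promoter that fires in both directions, with one polymerase leaving towards the coding gene and another away from it. Others start within the coding gene or beyond its end. In the literature some antisense lncRNAs act on the gene they are named for and others act elsewhere, and the name alone records position, not function.

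Some of the closest pairs of starts are shown here as examples of such a shared promoter. They are not typical in distance, since calls paired with the sense gene had a median distance of 133 bp. Each stretch below runs 5′ to 3′ in the direction of the antisense gene, from 10 bases beyond the partner's call to 10 bases beyond the antisense call. The capitals mark the called base and the base after it in each direction of transcription, first for the partner, which is read on the other strand, and then for the antisense gene. In the partner's pair the called base is thus the second letter, and CA there appears as TG. The sequences are those of RefSeq, build GRCh38.p14. The first 5 are among the closest pairs between an antisense call and a promoter call of its named sense gene, and the last of them is tied with SRP54-AS1, which is not printed.
OSGEPL1-AS1 (chr2:189762785-189762830, forward strand): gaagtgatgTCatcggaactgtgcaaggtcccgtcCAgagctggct
VWA8-AS1 (chr13:41961100-41961151, forward strand): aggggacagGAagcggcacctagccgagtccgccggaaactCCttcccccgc
ZNF407-AS1 (chr18:74597826-74597880, reverse strand): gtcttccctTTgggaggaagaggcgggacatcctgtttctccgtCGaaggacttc
NARF-AS2 (chr17:82458144-82458211, reverse strand): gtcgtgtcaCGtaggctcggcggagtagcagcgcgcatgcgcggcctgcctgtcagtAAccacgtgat
MPDU1-AS1 (chr17:7584076-7584145, reverse strand): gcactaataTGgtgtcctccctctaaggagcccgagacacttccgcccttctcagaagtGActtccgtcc
The next 3 show a pair with the sense gene THAP9, a pair with the neighbouring gene NOP2 in place of the sense gene CHD4, and a pair with a call at no annotated gene end.
THAP9-AS1 (chr4:82900930-82901022, reverse strand): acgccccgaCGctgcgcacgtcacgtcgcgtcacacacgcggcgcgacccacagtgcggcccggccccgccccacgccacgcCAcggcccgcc
CHD4-AS1 (chr12:6568281-6568392, forward strand): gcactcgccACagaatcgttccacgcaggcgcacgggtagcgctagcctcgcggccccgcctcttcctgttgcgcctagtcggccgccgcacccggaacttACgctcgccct
HIF1A-AS3 (chr14:61751089-61751203, reverse strand): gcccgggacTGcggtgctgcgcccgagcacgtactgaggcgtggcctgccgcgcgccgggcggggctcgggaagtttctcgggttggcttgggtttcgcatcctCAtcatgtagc
The calls of these pairs lay from 25 bp apart at OSGEPL1-AS1 to 94 bp apart at HIF1A-AS3.

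Antisense genes carried a start site less often than protein-coding genes and more often than intergenic lncRNA genes. Of the 2024 antisense genes, 19.5% had a promoter call (Wilson 95% interval 17.8 to 21.3%). The background was 18.9% of all 59098 genes, 9.61% of all 18177 lncRNA genes, 8.37% of the lncRNA genes with other names and 42.2% of 19974 protein-coding genes. Among lncRNA genes named by position, 56.7% of 591 divergent transcript genes (-DT, genes named for starting back to back with a coding gene; interval 52.7 to 60.6%) and 5.29% of 2306 LINC genes (intergenic lncRNAs; interval 4.45 to 6.28%) had a call. The antisense share was thus close to that of all genes, and its interval lay apart from those of the -DT, LINC and protein-coding genes. These intervals cover counting over genes only, genes are not replicates, and no test of the differences was run.

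**Figure D1:**
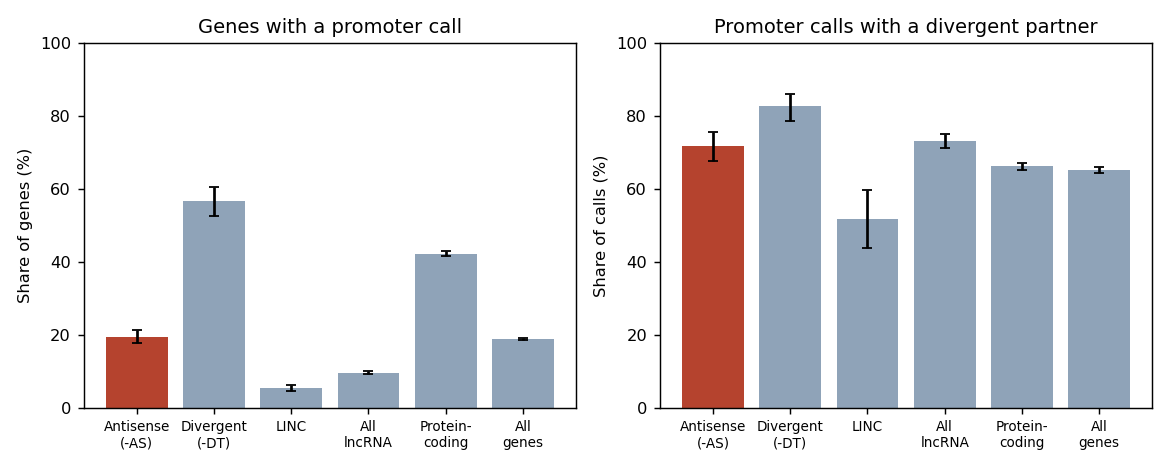
Share of genes with a promoter call (left, percent of genes) and share of promoter calls with a divergent partner within 1000 bp (right, percent of calls), for antisense lncRNA genes and 5 comparison classes; bars are shares and error bars Wilson 95% intervals. Antisense genes lie at 19.5% of genes called, between LINC genes at 5.29% and -DT genes at 56.7%, and at 71.9% of calls paired.

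The strand of the antisense gene was listed for 1518 of the 2024 genes in the promoter sequence table of RefSeq, which the rule did not use. Of 402 member calls at genes with a listed strand, 377 (93.8%, interval 91.0 to 95.8%) lay on the strand of the antisense gene, and 25 lay on the other strand, at the gene's 3′ end. Of these 25 calls, 8 were also promoter calls of the named sense gene, for example at ATOX1-AS1 (sense gene ATOX1, a copper chaperone) and FARSA-AS1 (sense gene FARSA, a phenylalanyl-tRNA synthetase subunit). A further 78 member calls fell at genes with no listed strand. Counting own-strand calls only, 312 of 1518 genes (20.6%) were called. Across all 480 calls, 55 were also promoter calls of another gene, 27 of them of the sense gene itself. In 11 genes both ends carried a call, among them PCNA-AS1 and RASSF1-AS1, and there the rule alone did not tell which call was the antisense start.

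Antisense calls were placed less sharply than calls at coding genes. They lay a median of 19 bp downstream of the annotated gene end (quartiles -15.25 and 128.25 bp; interval of the median 12 to 28 bp), against 3 bp for protein-coding genes (quartiles -1 and 35 bp). Within 10 bp of the annotated end lay 17.5% of the 480 antisense calls and 43.0% of 9522 calls at protein-coding genes, and within 50 bp 46.0% and 70.4%. At lncRNA genes with other names the median was 14 bp (quartiles -11 and 91 bp), with 23.3% of 1584 calls within 10 bp and 47.7% within 50 bp. The share within 50 bp was thus near that of other lncRNA genes. The most frequent single offset was -1 bp in both the antisense calls (21 calls) and all 12439 promoter calls (1620 calls). At the limits of the window, the calls at ANXA2R-AS1 (500 bp), MYADM-AS1 (-499 bp), EZR-AS1 (-495 bp), RFX5-AS1 (493 bp) and DDN-AS1 (491 bp) lay just inside it. Those at GLYCTK-AS1 (-501 bp), GAS5-AS1 (-504 bp), LRP4-AS1 (-509 bp), PYGO2-AS1 (511 bp) and WDFY3-AS2 (512 bp) lay just outside.

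The letters at the calls showed an initiator-like dinucleotide. RNA polymerase II commonly starts at an A or G that follows a C or T, most often at the A of CA. In the listed promoters of antisense genes, the called base and the next base read CA at 73 of 229 calls (31.9%, interval 26.2 to 38.2%), against 7.09% of all positions in those promoters. Over all listed promoters the share was 33.8% of 8036 calls, against 6.33% of all positions. One base earlier it was 2.18% at the antisense calls and one base later 2.62%. The called coordinate therefore matched the C and not the A of CA, on the reading of the interval's end as the position. The same base step was seen in the most frequent offset of -1 bp.

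Most antisense calls had a divergent partner, and the partner was often not a promoter call of the sense gene. Of the 480 calls, 345 (71.9%, interval 67.7 to 75.7%) had a call of the other strand 0 to 1000 bp upstream. The background was 57.6% of all calls, 65.1% of all promoter calls and 66.3% of those at protein-coding genes. Among lncRNA genes it was 73.1% for all, 73.6% for those with other names, 82.8% for -DT genes and 51.7% for LINC genes. The antisense share was thus near that of lncRNA promoter calls in general. The nearest partner was a promoter call of the sense gene for 121 calls, 35.1% of the paired calls (interval 30.2 to 40.2%). For 84 (24.3%) it was a promoter call of another gene, a protein-coding one among them in 71. For 140 (40.6%) it lay at no annotated gene end. Only outer gene ends were counted, so a partner at an internal start of the sense gene falls in this last group. How many do was not tested. The remaining 135 calls were unpaired.

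The distance between partners was 158 bp in the median (quartiles 108 and 265 bp), against 177 bp for protein-coding promoter calls. It was 133 bp where the partner was the sense gene (interval of the median 117 to 151 bp), 179 bp for another gene (148 to 226 bp) and 186 bp for calls at no gene end (156 to 215 bp). The closest sense partners lay at 25 bp for OSGEPL1-AS1, 31 bp for VWA8-AS1, 34 bp for ZNF407-AS1, 47 bp for NARF-AS2 and 49 bp for both MPDU1-AS1 and SRP54-AS1. Their sense genes encode, among others, a tRNA-modifying enzyme of mitochondria (OSGEPL1) and a factor needed for the use of mannose donors in glycosylation (MPDU1). The call that paired with OSGEPL1-AS1 also met the rule for ANKAR. Among the farthest were CCNT2-AS1 at 643 bp, SBNO1-AS1 at 567 bp, ARF4-AS1 at 480 bp and DNAJC27-AS1 at 474 bp. CCNT2 is a cyclin of the elongation factor P-TEFb. Where both calls of a pair lay in listed promoter sequence (173 pairs, chromosome 8 left out), CA stood at the antisense call in 26.6% and at the partner in 33.5%, and at both in 12.7%.

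**Figure D2:**
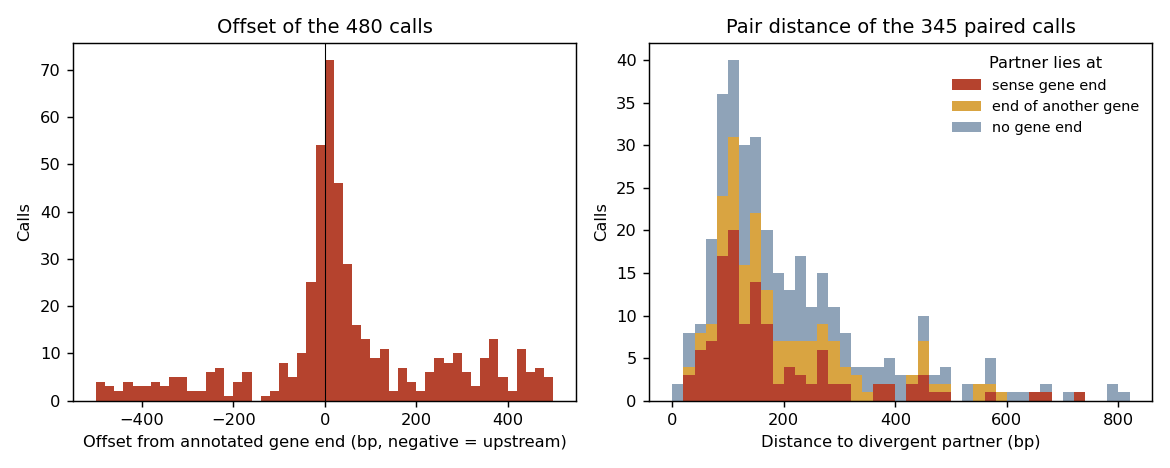
Left, number of member calls by offset from the annotated gene end in bins of 20 bp, with negative values upstream; right, number of paired calls by distance to the divergent partner in bins of 20 bp, stacked by where the partner lies. The offsets gather around 0 bp with a long tail downstream, and the pair distances have a median of 158 bp.

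Where the antisense gene starts relative to its sense gene went with what its call was paired to. In 1299 pairs both strands were listed. In 1296 of them the strands were opposite, while FAM131B-AS2, MAP7-AS1 and TUB-AS1 were listed on the strand of the gene they are named for. Of the 1296, the 123 genes that start upstream of the sense start were called in 45.5% (56 genes, interval 37.0 to 54.3%), and 53 of their 66 own-strand calls were paired with the sense promoter, at a median of 168 bp. The 379 genes that start inside the sense gene and cross its start were called in 28.0% (106 genes), and 44 of their calls were paired with the sense promoter, 37 with a call at no gene end and 52 were unpaired. The 568 genes that lie wholly inside the sense gene were called in 6.87% (39 genes, interval 5.06 to 9.25%), and 35 of their calls had a partner at no gene end. That a start far from the sense start has no sense partner follows from the 1000 bp limit.

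The 174 genes that start past the sense end and run back into it had other partners. They were called in 34.5% (60 genes, interval 27.8 to 41.8%), with a median of 77327 bp between the antisense and the sense start. Of their 69 own-strand calls, 42 were paired with a promoter call of another gene, at a median of 162 bp, and 13 with a call at no gene end. CHD4-AS1 (gene ID 139355233, chromosome 12, 6568371 to 6584751) is one of them. It is named for CHD4, the ATPase of the chromatin remodeller NuRD, but its call at 6568382, 11 bp inside the gene, lay 91 bp from the call of NOP2, a nucleolar rRNA methyltransferase, while the annotated starts of CHD4-AS1 and CHD4 lie 39008 bp apart. MCM3AP-AS1 was called at 46229225 on chromosome 21, 6 bp upstream of its end, and was paired over 450 bp with LSS, the lanosterol synthase of cholesterol synthesis. HIF1A-AS3, at 61751099 on chromosome 14, was called 2 bp upstream of its annotated end with a partner at 94 bp that lay at no gene end.

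**Figure D3:**
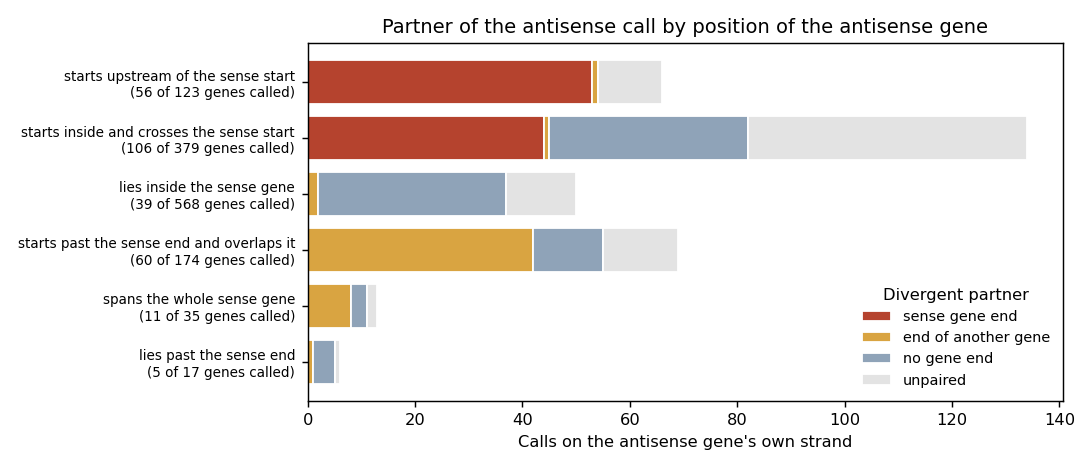
Number of calls on the antisense gene's own strand by the position of the antisense gene to its sense gene (rows), stacked by the place of the divergent partner; the row labels give how many genes of each layout were called. Sense partners occur only in the upper rows (53 of 66 and 44 of 134 calls). Partners at other genes lead among antisense genes that start past the sense end and overlap it (42 of 69 calls).

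Called antisense genes had a called sense gene more often than uncalled ones had. The sense gene was found in the table on the same chromosome for 1999 of the antisense genes, and for 1982 of these antisense genes it was protein-coding. Of 389 called antisense genes with a sense gene in the table, 255 (65.6%, interval 60.7 to 70.1%) had a called sense gene. Of 1610 uncalled antisense genes 448 did (27.8%, interval 25.7 to 30.1%), and of all protein-coding genes 42.2%. Leaving out calls that were also promoter calls of another gene, the share was 64.3% of 350 genes. Read the other way, 36.3% of 703 antisense genes with a called sense gene were called themselves and 10.3% of 1296 with an uncalled one. Some sense genes occur more than once in these counts: 1808 sense genes stood behind the 1999 pairs, and 155 had 2 or more antisense genes. In 2 of these 155, DLGAP1 and DOCK8, 2 or more antisense genes were called.

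The joint calling was greatest where the starts lay close together. With both strands listed and own-strand calls only, 93 of 129 antisense genes (72.1%, interval 63.8 to 79.1%) were called when they started within 500 bp of a called sense start, and 16 of 77 (20.8%, interval 13.2 to 31.1%) when that sense start was not called. Over 500 and up to 1000 bp the shares were 37.5% of 40 and 7.14% of 56. Over 1000 and up to 5000 bp they were 44.2% of 52 and 15.5% of 110. Beyond 20000 bp the shares were 19.9% of 196 with a called and 9.36% of 470 with an uncalled sense gene. Over 5000 and up to 20000 bp the intervals of both groups overlapped (18.3% of 60, interval 10.6 to 29.9%, and 14.2% of 106, interval 8.77 to 22%). The share near called sense starts moved with the window, to 48.6% of 109 genes at 100 bp and 84.4% of 135 at 1000 bp, and stayed above that near uncalled ones (26.8% and 18.3%) in both.

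**Figure D4:**
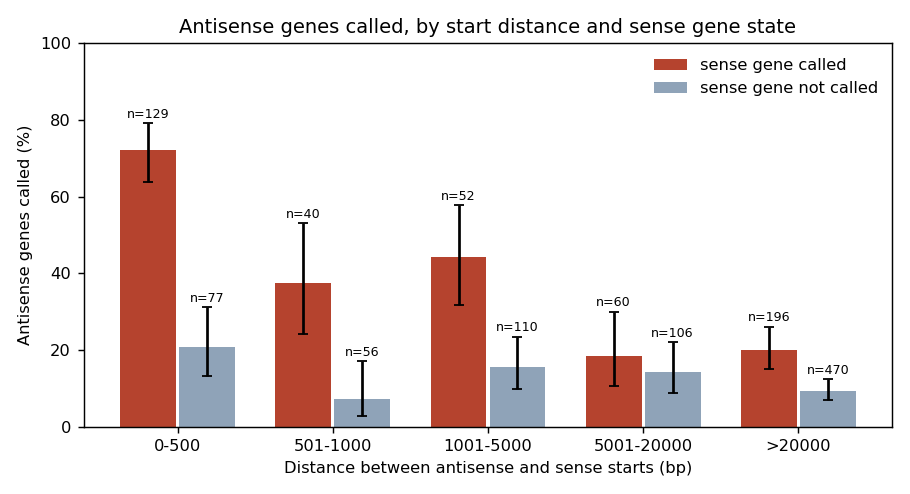
Share of antisense genes called on their own strand (percent) by the distance between the annotated antisense and sense starts, for sense genes called and not called on their own strand; error bars are Wilson 95% intervals and n is the number of antisense genes. Within 500 bp the shares were 72.1% and 20.8%, and over 5000 and up to 20000 bp they were 18.3% and 14.2%.

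In 36 of 389 called antisense genes (9.25%) the sense gene had no call on either strand. This was counted from 500 bp before the sense gene to 500 bp after it. Of 1610 uncalled antisense genes, 45.0% had a sense gene with some call in that span. Of the called ones 90.7% did, their own calls included. Of the 40 calls of the 36 genes, 21 were paired with a promoter call of another gene, 10 with a call at no gene end and 9 were unpaired. Among the 27 of these genes with both strands listed, 18 start past the sense end and overlap it. A call inside the sense gene or within 500 bp of it, the antisense call included, keeps a gene out of this set. The absence of sense partners and of own-strand calls inside the sense gene thus follows from the definition, which also shapes the counts above. For PAQR9-AS1 and TNS2-AS1 the calls lay on the strand opposite to the antisense gene. ADGRL1-AS1, named for a latrophilin receptor of nerve cells, was called at 14136726 and 14137168 on chromosome 19, and the nearest call on the other strand, 143 bp from the first, was that of ASF1B, a histone chaperone of dividing cells. CLCA4-AS1 was paired over 91 bp with SH3GLB1, a gene of membrane curvature and autophagy. CKMT2-AS1, named for the muscle mitochondrial creatine kinase, was paired over 108 bp with ZCCHC9. ASB16-AS1 was paired over 264 bp with TMUB2, ABHD16B-AS1 over 259 bp with TPD52L2 and EPCIP-AS1 over 336 bp with PAXBP1. ALDH1L1-AS1 (90 bp), ATP8B1-AS1 (136 bp) and ENTPD3-AS1 (285 bp) had partners at no gene end, and CBR3-AS1 was unpaired. FGD5-AS1, a widely transcribed lncRNA named for an endothelial exchange factor, was called at 14948366 and 14948010 on chromosome 3, 75 and 431 bp inside its end, with a partner 266 bp from the first. TTN-AS1, named for titin of muscle, had an unpaired call 379 bp inside its end.

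Antisense genes of blood and red cell genes were read against the background of 19.5% of all antisense genes. Those of erythroid and haematopoietic factors were called in 2 of 10, GATA2-AS1 and JARID2-AS1. GATA2-AS1 (gene ID 101927167, chromosome 3, 128489203 to 128503207) crosses the start of GATA2, a factor of blood stem and progenitor cells. It was called at 128489202, 1 bp upstream of its annotated start, with no partner within 1000 bp. The stretch around this call, with the called base and the next in capitals, holds CA there and is shown because the annotated start is the A of that CA.
GATA2-AS1 (chr3:128489172-128489232, forward strand): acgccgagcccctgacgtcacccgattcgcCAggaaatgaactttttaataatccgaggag
GATA2 itself was called, and 2 forward and 4 reverse calls fell in it, the 500 bp on each side included. JARID2-AS1, inside the gene of the Polycomb partner JARID2, was called at 15248576 on chromosome 6, 120 bp inside its end, with a partner at 300 bp. KLF3-AS1, RUNX1-AS1, ZFPM1-AS1, NFIA-AS1, NFIA-AS2, GATA3-AS1, MEIS1-AS2 and MEIS1-AS3 had no promoter call. GATA3 and MEIS1 had no call at all, while KLF3 and RUNX1 were called themselves. NFIA and ZFPM1 had no promoter call. With the 500 bp on each side, NFIA held 4 forward and 3 reverse calls and ZFPM1 4 forward and 1 reverse.

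Of the fetal-globin regulators, 1 of 2 antisense genes was called: CHD4-AS1, described above, and not LIN28B-AS1, whose sense gene LIN28B had 0 calls. Of the list drawn up for the red cell membrane 1 of 3 was called, EPB41L4A-AS1, 340 bp inside its end and unpaired. It is named for EPB41L4A and not for EPB41, which the list also holds. ADD3-AS1 and TMCC2-AS1 were not called. The haem and iron list named 0 antisense genes in the table. With so few genes, none of these counts could be told from the background.

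Of 26 antisense lncRNAs with a role described elsewhere, 10 were called, beside 19.5% of all antisense genes. They were picked by hand, so no more is read from that count. THAP9-AS1 was called at 82900940 and 82900569 on chromosome 4, at -24 and 347 bp, with the sense gene THAP9, a domesticated transposase, at 72 bp from the first. TMPO-AS1, at the gene of a nuclear lamina protein, had calls at 56 and -232 bp from its end, paired with a call at no gene end. PCNA-AS1, inside the gene of the replication clamp PCNA, had a forward call at -73 bp on its own strand and a reverse call at 10 bp from its other end. CDKN2B-AS1 (ANRIL, at the CDKN2A and CDKN2B tumour suppressor locus) was called at 21994532 and 21994882 on chromosome 9, paired over 111 and 461 bp with a call of the gene LOC124902130. HOXB-AS1 was called at -396 and 352 bp, whereas HOXB-AS3, HOXA-AS2 and HOXA-AS3 held 0 calls. FGD5-AS1, MCM3AP-AS1, HIF1A-AS3 and TTN-AS1, described above, were also called. HIF1A-AS1, HIF1A-AS2, GAS6-AS1, ZEB1-AS1 and SBF2-AS1 were among the 16 not called.

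**Figure D5:**
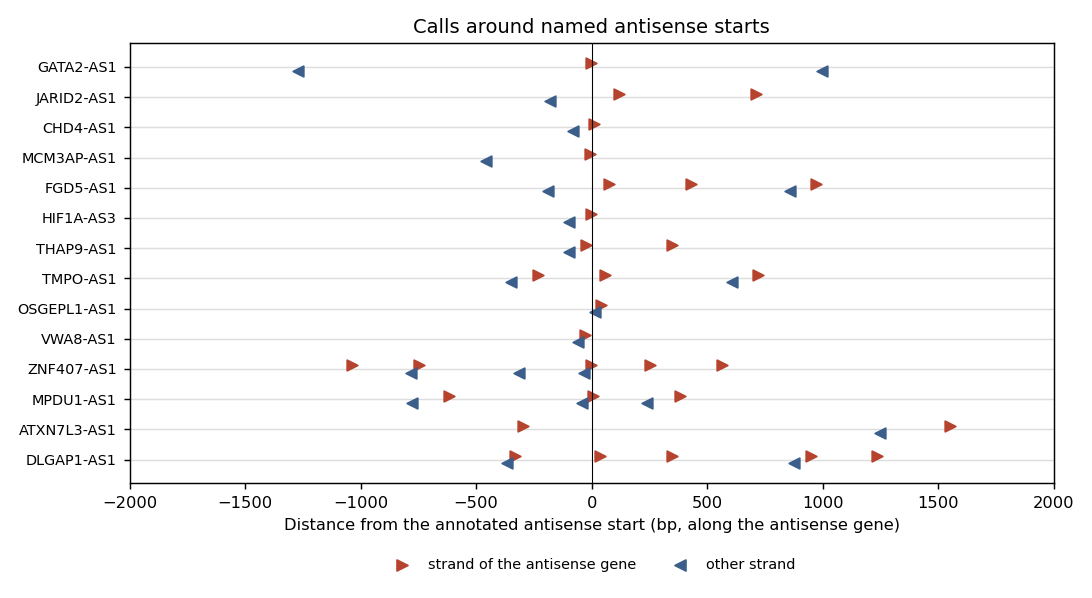
Positions of calls within 2000 bp of the annotated start of 14 named antisense genes, in bp along the antisense gene; right-pointing marks are calls on its strand and left-pointing marks calls on the other strand. CHD4-AS1, HIF1A-AS3 and VWA8-AS1 each show 1 pair near 0 bp, and DLGAP1-AS1 shows a run of calls on its own strand.

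The outer ends missed some starts. Of the 1518 genes with a listed strand, 151 had more than 1 listed start, and 324 (21.3%) had a call within 500 bp of any listed start on their own strand. Of these genes 15 had no member call. OIP5-AS1, known as Cyrano, was among them, with a forward call at 41284008 and a reverse call at 41283850 on chromosome 15, well inside its left end at 41282697. FOXP4-AS1, MAPKAPK5-AS1 and PCBP1-AS1 were others. Of the 1629 uncalled antisense genes, 231 (14.2%) held some call, with 500 bp on each side counted. Such calls can belong to overlapping genes. No such share was counted for other genes, and how many of these calls are antisense starts was not tested.

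Runs of calls were short at most called antisense genes. No such count is given for other gene classes, so whether short runs are particular to antisense genes was not tested. Calls on the called strand were counted from 500 bp upstream of the gene to its far end, and 136 of 406 combinations of gene and strand had 2 or more calls, 43 had 3 or more and 3 had 5 or more. ATXN7L3-AS1, of 24868 bp, had the most, 7 forward calls with the first at -296 bp from its start, beside 5 on the reverse strand. It overlaps ATXN7L3 and UBTF, which encodes a factor of ribosomal RNA transcription, and which gene each call belongs to was not tested. ENTPD1-AS1, of 337030 bp, had 6 and overlaps ENTPD1, CC2D2B and CCNJ, and here too the gene of each call was not tested. DLGAP1-AS1, of 3266 bp, had 5, the first at -330 bp from its start, or 1.53 per kb of gene length. Next came 11 genes and strands with 4 calls, of which ASH1L-AS1 and CFAP418-AS1 are first by name. DLGAP1, which encodes a scaffold of the synapse, had no promoter call but held 13 forward and 9 reverse calls. Its antisense genes DLGAP1-AS1, DLGAP1-AS2 and DLGAP1-AS6 were called, and DLGAP1-AS3, DLGAP1-AS4 and DLGAP1-AS5 were not.

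The promoters of called antisense genes were rich in C and G. The listed 300 bases at the outer start had a median C+G content of 67.0% (quartiles 60.0 and 73.0%) in the 312 genes called on their own strand, 52.3% in the other 1206 antisense genes and 58.3% in all 27195 genes with a listed promoter. The ratio of observed to expected CpG was 0.833, 0.326 and 0.579. The GC box letters GGGCGG, searched on both strands as were all motifs, stood in 72.1%, 27.4% and 44.6%. The core letters of the TATA box, TATAAA, stood in 3.53% of the called antisense genes, 12.2% of the other antisense genes and 12% of all genes.

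In the same 3 groups, in the same order, the motif of GATA factors, spelled AGATAA, stood in 5.45%, 11.7% and 10.5% of promoters. The letters CCAAT, which the factor NF-Y binds, stood in 34%, 32.7% and 35.7%. The motif of KLF factors, CACCC, stood in 65.1%, 59.4% and 58.9%. The letters that open many introns, GGTAAG, stood in 6.73%, 9.12% and 7.90%. A letter can count towards more than 1 motif. The C+G content differed between the groups, and its part in the motif shares was not tested.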

How the data were processed

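PRO-seq was performed on 5 HUDEP-2 libraries. Per the file headers, the deposited lists are start sites called with TSScall on 1 sorted, de-duplicated alignment, 1 list per strand. Per the submitters' processing notes, the build was hg38, and deepTools 3.5.4, SAMtools 1.17, Picard and BWA 0.7.16a are named. For TSScall neither version nor read minimum is given in the sources used here. The score, as deposited by the authors, is 0 in all 28283 calls. The end of each 1 bp interval was used as its position, and 124 calls on other chromosomes were left out.

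Gene ends came from the RefSeq table of GRCh38.p14, and strands and sequences from RefSeq promoters (250 bases before to 50 after each start), which list 1518 of 2024 antisense genes. A call was paired if the opposite strand carried one at 0 to 1000 bp upstream. No test across samples was possible. Shares have Wilson 95% intervals and medians order-statistic intervals, which cover counting over genes or calls only. Alternatives varied the window, the pair distance, merging within 500 bp, shared calls and strand. The code was run on simulated calls planted close to gene ends, well within the window. This checks the code and does not show how well the rule finds antisense starts. The members, the lists and the rule for named genes (antisense genes of listed blood genes, listed known antisense lncRNAs, extremes of pair distance and calls per gene, silent sense genes in symbol order and calls next to the window's limit) were chosen with earlier results of these data known. Some genes that the rule names are not reported here. Names outside the rule were chosen with their values in view. Scripts ran under Python 3.11.15 with scipy 1.17.1, pandas 2.3.3 and numpy 2.4.6, and figures came from matplotlib 3.10.9.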

Additional observations from a re-analysis of the deposited data

Results flagged for a closer look

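Of 15 genes with an -AS symbol that the table lists under a type other than lncRNA, and that the rule therefore leaves out, 5 had a promoter call: CLK3-AS1, F10-AS2, GNAS-AS1, KHDC1-AS1 and TRAF3IP2-AS1. The share over antisense lncRNA genes was 19.5% and over all genes 18.9%. The 5 genes are given because they lie outside the comparisons, and the difference from that background was not tested.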

How the results depend on the processing

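The share of antisense genes called was 13.7% with a window of 100 bp, 23.6% with 1000 bp, 11.2% from forward and 8.89% from reverse calls alone, and 17.4% with calls of no other gene. Paired calls fell to 62.3% when calls within 500 bp were merged. The share of calls paired with the sense promoter was 15.1% at 100 bp and 29.6% at 1000 bp. The share of called antisense genes with a called sense gene was 48.7% at 100 bp and 70.5% at 1000 bp. With any call in the sense gene or within 500 bp of it, the share was 90.7%, against 45.0% of uncalled antisense genes. That count takes in the antisense gene's own call where it lies there, so it is not a measure of the sense gene alone. The median offset was 9 bp with a window of 100 bp and 33.5 bp with 1000 bp. Within 500 bp of a called sense start, 48.6% and 84.4% of antisense genes were called at those windows. The other alternatives stayed within the interval of the main value. Using listed starts, using own-strand calls for values other than the called share, and the windows and unshared calls for the start distances were chosen after seeing the data. No paired analysis was possible because the lists have no column per library. The unknown read minimum limits what an absent call shows.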
